A study of Nematostella vectensis with 66 samples.

Results

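The change in transcript levels over the last 2 h of a field day was examined in the starlet sea anemone Nematostella vectensis, by setting libraries of ZT12 (17 h on the clock) against libraries of ZT10 (15 h). The 14 libraries were taken by their labelled hour from a series of 66, with 7 at each hour, of which 4 came from single animals (letters A to D) and 3 from pools of 2 animals (letters E to G). All were whole adults of a laboratory stock that descends from animals of Great Sippewissett Marsh, Massachusetts, kept for several generations in culture, brought to a salinity of 30 ppt and placed in 10 mesh pens in a marsh pool with restricted tides. No group was treated or altered genetically, and ZT10 and ZT12 differed by the hour of collection alone as far as the labels say. The sex of the animals and the pen each came from are not among the labels used here, so an effect of the pen and an effect of the hour cannot be told apart. Clock time places ZT12 in the late afternoon of a June day, when the sun is still up at this latitude, so the later hour precedes dusk.

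Nematostella burrows in the soft sediment of salt marshes, where light, temperature, oxygen and salinity change through the day and with the tide. It carries genes related to the animal circadian clock, including relatives of Clock, Cycle and the cryptochromes, and its transcripts and locomotor activity are known to follow daily light cycles. Which of the measured genes belong to these families is not given here: the count table lists gene models by identifier, and 0 of its 24265 identifiers occur in the gene table of the reference assembly at hand. Genes are therefore named by identifier, with no function and no sequence, and neither gene groups nor cell type markers were analysed here. In RNA of whole animals, fewer cells of a type and less RNA per cell cannot be told apart.

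Depth was alike at both hours. Totals ran from 426899 to 790053 counts at ZT10 and from 526448 to 736313 at ZT12, with medians of 615343 and 585176. Several libraries stood apart before any test of the hour was made. On the main axis of variation between libraries of the same hour, which held 29.5% of the variance left after hour and sample type, ZT10 pooled F scored 85.3 and ZT10 individual B 32.3, while the other 5 libraries of ZT10 lay between -26.8 and -16.0. At ZT12, pooled G scored 70.6 and individual C 35.5, and the other 5 lay between -25.8 and -14.2. High libraries thus occurred at both hours, 2 of 7 at each. Levels also varied more between libraries at ZT10: over all genes tested, the median SD of log2 CPM (CPM being counts scaled by library size, here on a log2 scale with a prior count of 2) was 0.538 at ZT10, 0.438 at ZT11 and 0.446 at ZT12, and ZT10 had the highest value of the 10 hours.

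Between ZT10 and ZT12, 117 gene models rose and 146 fell. A gene was called where its adjusted p was under 0.05 (edgeR, quasi-likelihood F test), in a fit over all 66 libraries with sample type as covariate and Benjamini-Hochberg adjustment over 10916 gene models. The 263 genes made up 2.41% of those tested (1.07% higher and 1.34% lower), and 785 higher and 980 lower genes had an unadjusted p below 0.05. The median rise was 2.21-fold, with quartiles of 1.77-fold and 2.86-fold, and the median fall was 2.23-fold, with quartiles of 1.85-fold and 3.09-fold. A change of over 2-fold was fitted for 73 of the rising and 92 of the falling genes, and of over 4-fold for 10 and 14. Over all genes tested the median absolute change was 1.21-fold and the median signed change -0.02 log2 units, so the rises and falls lay on either side of a median gene close to 0. The scaling between libraries takes most genes as unchanged, so a median near 0 is largely set by it and tests nothing. One test both chose the called genes and sized them, so their changes may be overstated. The called genes were read more deeply than most, with a median of 33.5 counts per library among the rising and 34.2 among the falling, against 15.7 over all genes tested.

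**Figure D1:**
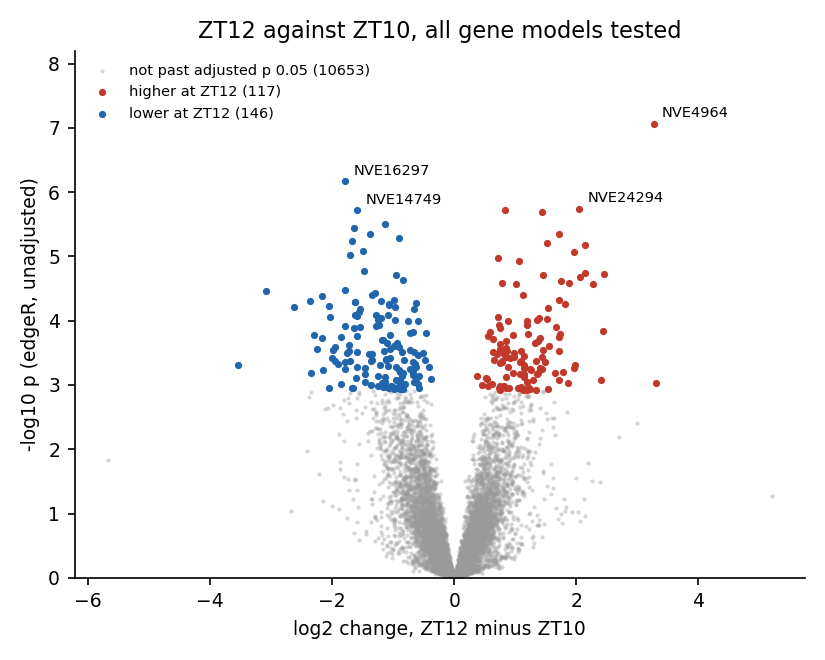
Change from ZT10 to ZT12 (x axis, log2 units) against the unadjusted p of edgeR's test (y axis, -log10), with 1 point for each of the 10916 gene models tested. Red marks the 117 genes higher at ZT12 and blue the 146 lower ones past an adjusted p of 0.05; the 2 genes with the smallest p in each direction carry their identifiers.

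Few of these genes separated the libraries of the 2 hours fully. In 12 of the 117 rising genes every ZT12 library lay above every ZT10 library, and in 5 of the 146 falling genes every ZT12 library lay below. Over all genes tested, 21 (0.192%) were separated upward and 7 (0.0641%) downward. As the same libraries chose the genes, these counts describe the overlap and test nothing.

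NVE4964, the rising gene with the smallest p, had from 0 to 13.7 CPM at ZT10 (median 1.83, n = 7) and from 7.74 to 76.0 CPM at ZT12 (median 33.4, n = 7). It was close to undetected at the earlier hour, where counts ran from 0 to 9 per library, and only ZT10 pooled E reached above the lowest ZT12 library, pooled E. The fitted rise was 3.27 log2 units (SE 0.54, edgeR adjusted p = 0.00094), or 9.62-fold. Fitted apart, it was 4.51 log2 units in single animals (SE 0.70) and 1.94 in pools (SE 0.86). The difference between the 2 kinds was not called (edgeR interaction, unadjusted p = 0.0398, adjusted p = 0.819). At ZT11, between the 2 hours, it had from 1.96 to 16.4 CPM with a median of 8.73. Elsewhere in the day its highest hourly mean was 21.9 ± 6.4 CPM at ZT6 (SD, n = 6), so the mean at ZT12, 40.2 ± 21.9 CPM (SD, n = 7), was the highest of the 10 hours. In the 52 libraries outside ZT10 and ZT12, a difference of its level between hours was not called (edgeR adjusted p = 0.112).

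NVE24294 ran from 3.66 to 21.6 CPM at ZT10 (median 6.84, n = 7), from 6.12 to 42.5 CPM at ZT11 (median 15.1) and from 19.3 to 60.4 CPM at ZT12 (median 40.6, n = 7). A single library of each end hour overlapped, ZT10 individual D above ZT12 pooled E. The rise was 2.05 log2 units (SE 0.39, edgeR adjusted p = 0.00367), with 2.46 in single animals fitted apart and 1.46 in pools. This gene had stood as high earlier in the day, at 36.4 ± 15.5 CPM at ZT6 (SD, n = 6), after a low of 6.95 ± 3.11 CPM at ZT5 (SD, n = 7). Low levels thus occurred both around ZT5 and around ZT10, and in the 52 libraries outside ZT10 and ZT12 its level differed between hours (edgeR adjusted p = 0.00111).

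NVE16297 had the smallest p of the falling genes. It ran from 86.6 to 240 CPM at ZT10 (median 136, n = 7), from 62.7 to 112 CPM at ZT11 (median 103) and from 19.9 to 81.6 CPM at ZT12 (median 48.4, n = 7). All 7 libraries of ZT12 lay below all 7 of ZT10, the closest being ZT12 individual C under ZT10 individual B. The fall was -1.79 log2 units (SE 0.32, edgeR adjusted p = 0.00364), to 43.8 ± 21.6 CPM from 154 ± 63.7 CPM (SD, n = 7 each). Fitted apart, it was -1.33 in single animals and -2.44 in pools. ZT9, before the fall, was also low, at 64.8 ± 44.3 CPM (SD, n = 7). Among the 52 libraries of the other hours its level differed between hours (edgeR adjusted p = 0.00705).

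NVE14749 ran from 34.2 to 231 CPM at ZT10 (median 85.4, n = 7), from 33.5 to 83.2 CPM at ZT11 (median 62.7) and from 29 to 43.7 CPM at ZT12 (median 35.6, n = 7). Libraries of ZT12 were close together and those of ZT10 far apart, so the ZT10 individual C, at 34.2 CPM, lay within the range of ZT12. The fall was -1.59 log2 units (SE 0.30, edgeR adjusted p = 0.00367). ZT9 held 39 ± 12.1 CPM (SD, n = 7), near the level of ZT12, and ZT5 the highest mean of the 10 hours, 133 ± 54.6 CPM (SD, n = 7). Among the 52 libraries of the other hours its level differed between hours (edgeR adjusted p = 4.28e-05).

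**Figure D2:**
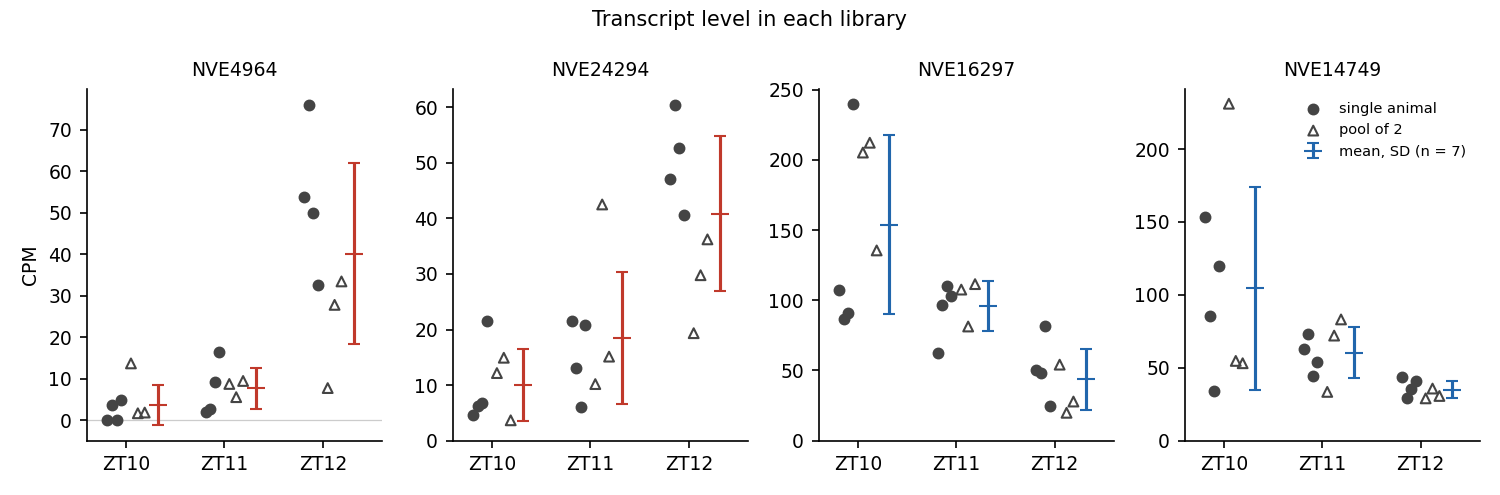
CPM of the 4 named genes in each library of ZT10, ZT11 and ZT12 (filled circles, single animals; open triangles, pools of 2), with the mean and SD of the 7 libraries of each hour beside them. NVE4964 and NVE24294 are highest at ZT12, NVE16297 is lower in all 7 ZT12 libraries than in any ZT10 library, and NVE14749 spreads from 34.2 to 231 CPM at ZT10.

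An exact two-sided permutation test of the hour within sample type, over all 1400 arrangements, gave p = 0.00286 for NVE4964, p = 0.00143 for NVE24294 and NVE16297 (the smallest that this design can give) and p = 0.00571 for NVE14749. As the 4 genes were picked for this difference, these values describe how far the hours overlap without a model of the counts.

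The rising genes were low in every library of ZT10 and high in every library of ZT12. For each library, the level of each gene was set against that gene's mean over the 8 hours outside the comparison, and the median was taken over the 117 genes. It lay between -0.86 (individual C) and -0.14 (pooled E) log2 units at ZT10 and between 0.31 (pooled E) and 0.88 (individual B) at ZT12. In shares of all counts, the 117 genes held from 0.853% to 1.16% of a ZT10 library, from 1.23% to 1.53% of a ZT11 library and from 1.42% to 2.35% of a ZT12 library. Each library of ZT11 held a larger share than any of ZT10, as did each library of ZT6 (1.31% to 1.82%) and ZT7 (1.30% to 1.93%). The genes were chosen for low levels at ZT10, so this order describes them and tests nothing.

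The falling genes behaved unevenly at ZT10. Their median in a library stood at 1.18 log2 units above the 8-hour mean in pooled E and at 0.74 and 0.73 in individuals D and A. It was 0.20 in individual B, 0.08 in individual C, 0.03 in pooled G and -0.43 in pooled F. The ZT10 library with the highest level was pooled E for 89 of the 146 genes (61%), against 16.5% of all genes tested, and the lowest was pooled F for 78 (53.4%), against 19.7%. At ZT12 the same median lay between -0.70 (individual A) and -0.38 (individual C), so the 7 libraries of ZT12 were alike while those of ZT10 were not. The median SD of log2 CPM of the falling genes was 0.68 at ZT10, 0.366 at ZT11 and 0.40 at ZT12, and that of the rising genes 0.541, 0.432 and 0.452. None of the 263 genes had more than 49% of its residual variance on the main axis between libraries, against 7.48% of all genes tested; genes that vary widely between libraries of an hour are also less likely to pass the test.

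**Figure D3:**
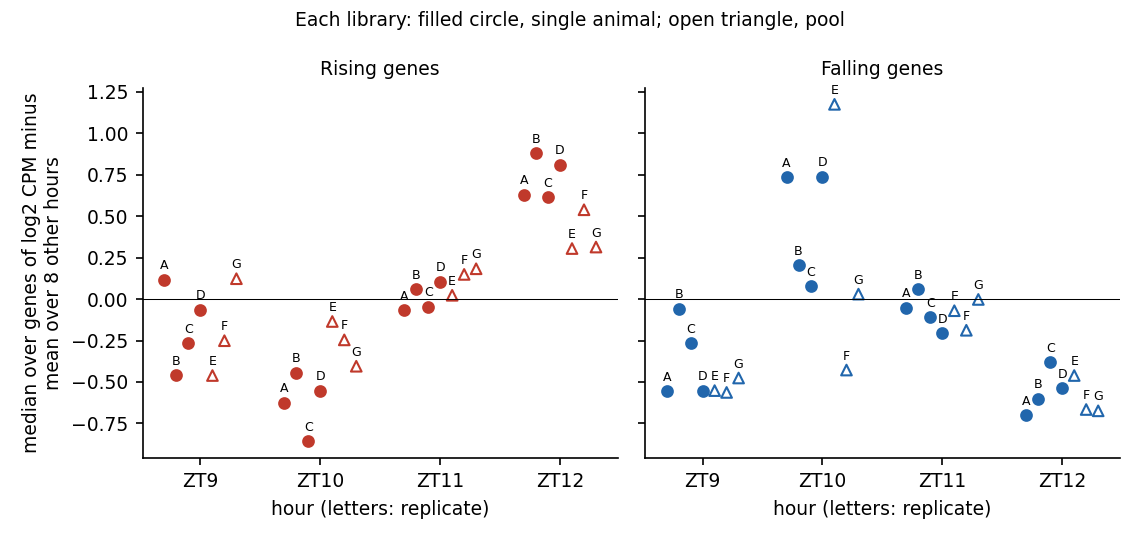
Each library's median, over the 117 rising genes (left) and the 146 falling genes (right), of log2 CPM minus the gene's mean over the 8 hours other than ZT10 and ZT12 (y axis, log2 units), for ZT9 to ZT12; letters name the library. Rising genes go from below 0 in all ZT10 libraries to above 0 in all ZT12 libraries, and falling genes at ZT10 spread from -0.43 in pooled F to 1.18 in pooled E.

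ZT11 showed where the genes stood in between. Its level lay between those of ZT10 and ZT12 for 109 of the 117 rising genes (93.2%) and 135 of the 146 falling genes (92.5%), against 39% of all genes tested. Genes chosen for a difference between ZT10 and ZT12 leave an hour at their usual level in between, so these shares and the fractions that follow are descriptions and test nothing. The median rising gene had covered 0.465 of its log2 change by ZT11 (quartiles 0.349 and 0.70), and the median falling gene 0.488 (quartiles 0.297 and 0.669). Of the rising genes 66 were nearer to ZT10 at ZT11 and 51 nearer to ZT12, and of the falling genes 76 and 70. Both steps share libraries with the comparison that chose the genes, so they are given as values only: the median rising gene changed by 0.55 log2 units from ZT10 to ZT11 and by 0.55 from ZT11 to ZT12, and the median falling gene by -0.60 and -0.57.

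Departure of ZT11 from the midpoint of ZT10 and ZT12 was tested apart, since that contrast does not use the difference between the end hours. In the same edgeR fit 1 gene of 10916 lay above the midpoint (0.00916%) and 1 below (0.00916%), 0.0183% together, and none of the 263 genes was called. NVE22564, the gene above, had from 52.7 to 82.4 CPM at ZT10 (median 69.9), from 74.2 to 148 at ZT11 (median 103) and from 43.5 to 77.7 at ZT12 (median 67.5, n = 7 each). It stood 0.69 log2 units above the midpoint (SE 0.14, edgeR adjusted p = 0.0232). NVE9201, the gene below, had from 253 to 937 CPM at ZT10 (median 601), from 265 to 333 at ZT11 (median 279) and from 324 to 852 at ZT12 (median 565, n = 7 each), and stood 0.97 log2 units below it (SE 0.19, edgeR adjusted p = 0.0232). Both calls hung on single libraries. That of NVE22564 was lost without ZT10 C or D, ZT11 A, B, F or G, or ZT12 C or G, with an adjusted p of up to 0.19 (without ZT11 B), and that of NVE9201 without ZT10 D, ZT11 A, B, C, F or G, or ZT12 C, with up to 0.085 (without ZT11 F).

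Taken singly, the 2 steps held few calls. From ZT10 to ZT11, edgeR called 8 genes higher (0.0733%) and 6 lower (0.055%), 0.128% together, and from ZT11 to ZT12 it called 0, where 573 higher and 515 lower genes had an unadjusted p below 0.05. DESeq2 gave 19 higher and 28 lower in the first step and 26 and 9 in the second, and limma with quality weights 16 and 9, then 43 and 28. In edgeR the first step gave 35 higher and 41 lower without ZT10 F, at most 1 in either direction without any other library of ZT10, any of ZT11 or any of ZT12 A to D, and 8 or 9 higher and 6 lower without ZT12 E, F or G.

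The 8 hours outside the comparison showed what the same genes did earlier in the day, in 52 libraries whose levels lie outside the difference that was tested. These libraries were part of the fit that called the genes, through its filter and its estimate of spread. In these libraries 67 of the 117 rising genes (57.3%) and 92 of the 146 falling genes (63%) had levels that differed among the hours, with an adjusted p under 0.05 in edgeR's F test on 7 degrees of freedom, against 2102 of all 10916 genes (19.3%). The test was added after the data had been seen. Called genes were read more deeply than most, which bears on the power of any such test, and the part of depth in the gap between these shares was not tested.

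Rising genes were also low at ZT5 and, less evenly, at ZT4, but not at ZT3, the first hour sampled. Their median difference from the 8-hour mean was 0.19 log2 units at ZT3, where 91 of 117 (77.8%) were above their mean. It was -0.31 at ZT4 and -0.37 at ZT5, then 0.35 at ZT6, 0.26 at ZT7 and 0.08 at ZT8, and -0.19 at ZT9. At ZT5 only 12 of 117 (10.3%) were above their mean, against 49.9% of all genes tested, and the library median was below 0 in all 7 libraries of that hour. At ZT4, with 4 libraries, 33 (28.2%) were above it, against 45.7%, and the library medians ran from -0.66 to 0.09. The lowest was that of ZT4 individual C, which had the lowest total of all libraries, 251647 counts. ZT4 was the lowest of the 8 hours for 35% of the rising genes, against 26.2% of all genes tested. At ZT7, 104 (88.9%) of the rising genes were above their mean, against 51.2%. ZT6 was the highest of the 8 hours for 57 of them (48.7%), against 10.2% of all genes tested.

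Falling genes had their high point at ZT5 and their low point at ZT9. Their median was 0.46 log2 units at ZT5, where 142 of 146 (97.3%) were above their 8-hour mean and all 7 library medians were above 0. It was -0.45 at ZT9, where 25 (17.1%) were above their mean, against 54.3% of all genes tested, and all 7 library medians were below 0. ZT5 was the highest of the 8 hours for 102 of them (69.9%), against 12.3% of all genes, and ZT9 the lowest for 83 (56.8%), against 18.8%. The levels at ZT10 (median 0.36) and ZT12 (median -0.61) stood beside these values, with ZT10 below the level of ZT5 and ZT12 below that of ZT9.

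**Figure D4:**
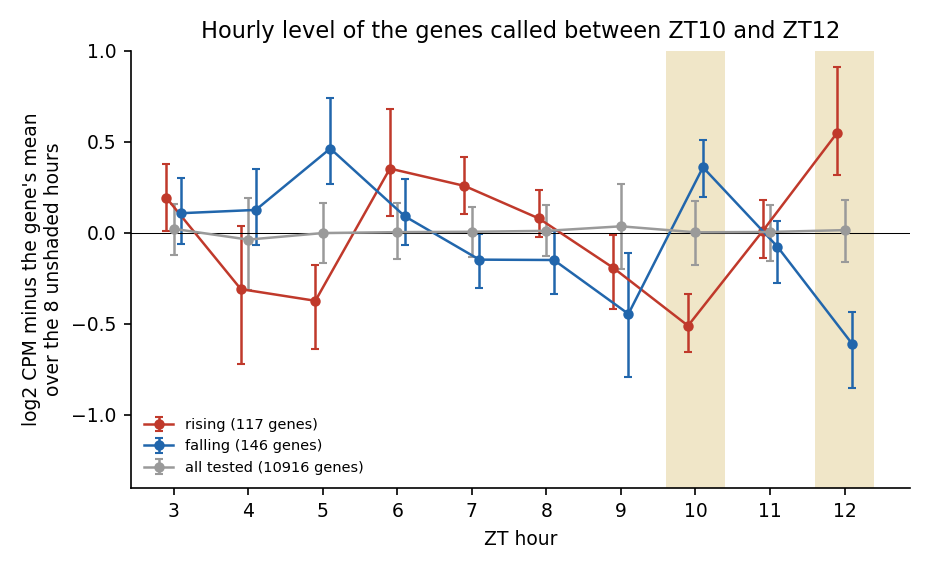
Median and quartiles over genes of log2 CPM minus the gene's mean over the 8 unshaded hours (y axis, log2 units) at each ZT hour, for the 117 rising genes, the 146 falling genes and all 10916 genes tested. The genes were called for their difference between the shaded hours, in a fit over all hours; among the unshaded hours, rising genes are lowest at ZT5 (-0.37) and highest at ZT6 (0.35), and falling genes highest at ZT5 (0.46) and lowest at ZT9 (-0.45).

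Single animals and pools measured the same interval separately, with no library in common. Fitted alone, the single animals (4 against 4, with the individual libraries of all hours in the fit) gave 125 genes higher (1.15%) and 85 lower (0.779%) at ZT12 in edgeR's test, 1.92% together. The pools (3 against 3) gave 0 calls (0%) with a smallest adjusted p of 0.135, and 259 higher and 346 lower genes at an unadjusted p below 0.05; DESeq2 called 1 lower gene in pools and limma with quality weights 0. Standard errors were larger in pools, with a median over all genes of 0.473 against 0.381 log2 units in single animals. Of the 125 genes called higher in single animals, 97 (77.6%) were also higher in pools, and of the 85 called lower, 62 (72.9%) were also lower. Over all genes tested the change had the same direction in both kinds for 58.4%. With an unadjusted p below 0.05 as well, 35 of the 210 (16.7%) had the same direction in pools, against 3.90% of all genes. The share was 12 of 125 (9.60%) for the genes called higher, against 3.08% of all genes higher in single animals, and 23 of 85 (27.1%) for those called lower, against 4.70%. The opposite direction with an unadjusted p below 0.05 was found for 3 of the 125, against 86 of all 5386 genes higher in single animals. It was found for 3 of the 85, against 93 of all 5529 lower ones, and for 179 of all 10916 genes. The median change of the called genes was smaller in pools, 0.39 against 1.61 log2 units for the 125 and -0.70 against -1.48 for the 85. The genes were picked in single animals, and this difference in size was not tested.

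Direct tests of the difference between the kinds called no gene in edgeR's interaction of hour and sample type (0%), with a smallest adjusted p of 0.0703 and 628 genes at an unadjusted p below 0.05; DESeq2 called 9 genes with a higher and 6 with a lower change in pools, and limma with quality weights 0. Among the genes of the joint comparison, the 146 that fell had nearly the same median change in single animals (-1.14 log2 units) and in pools (-1.15). The 117 that rose had 1.45 and 0.80. Of these, 31 (26.5%) had an unadjusted p below 0.05 in edgeR's interaction test, against 5.75% of all genes tested, with a smallest adjusted p of 0.149. Of the 146 that fell, 3 (2.05%) had such an unadjusted p, with a smallest adjusted p of 0.622. For the 117 rising genes the library medians of the 2 kinds did not overlap at either hour. At ZT12 they ran from 0.61 to 0.88 in single animals and from 0.31 to 0.54 in pools, and at ZT10 from -0.86 to -0.45 and from -0.41 to -0.14. At ZT11 they did overlap, from -0.07 to 0.11 and from 0.02 to 0.18. The same libraries of ZT10 and ZT12 chose these genes, so the values describe them and test nothing.

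The number of calls rested on single libraries of both hours, and that of falls on ZT10 pooled E and F above all. Falls went from 146 to 21 without ZT10 pooled E, all 21 of them among the 146, and to 364 without ZT10 pooled F, with all 146 still called. Rises went from 117 to 61 without ZT10 pooled E and to 267 without ZT10 pooled F, with 111 of the 117 still called. Of the other libraries, leaving out ZT10 individual A gave 45 rises and 52 falls, ZT10 individual B 72 and 140, ZT10 individual D 63 and 63, ZT12 individual A 57 and 59, ZT12 individual B 45 and 68, ZT12 individual C 75 and 110, ZT12 individual D 75 and 102, and ZT12 pooled F 83 and 95. Without ZT10 individual C there were 94 and 167, and without ZT10 pooled G 107 and 200. Leaving out ZT12 pooled E gave 119 and 146, and ZT12 pooled G 120 and 114. Sizes moved far less than calls. Without ZT10 pooled E the 146 genes had a median change of -1.01 log2 units, against -1.16 with all libraries, and 145 of them were still lower at ZT12, while the 117 had 1.27, against 1.14. The full set of libraries chose these genes and such a fit leaves out only 1 of them. Direction and size were thus bound to be close and test nothing.

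**Figure D5:**
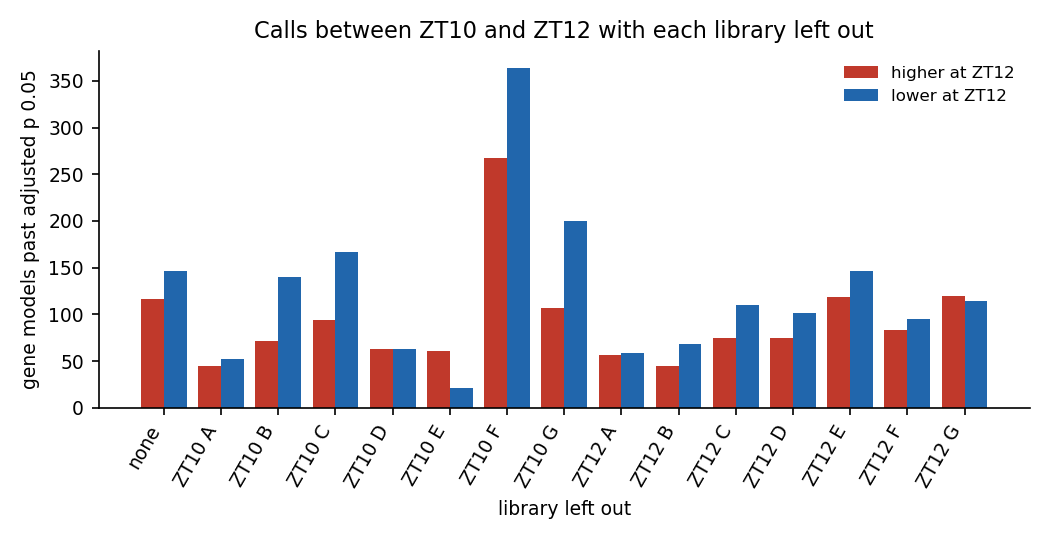
Number of gene models past an adjusted p of 0.05 (y axis) that were higher (red) or lower (blue) at ZT12, with all libraries (none) and with each of the 14 libraries left out in turn. Falls go from 146 to 21 without ZT10 pooled E and to 364 without ZT10 pooled F.

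The libraries in the fit moved the counts as well. With the 14 libraries of ZT10 and ZT12 alone and the same 10916 genes, edgeR called 4 rises and 0 falls, with 681 higher and 775 lower genes at an unadjusted p below 0.05, whereas DESeq2 called 84 and 73 and limma with quality weights 132 and 86 in these libraries. In that edgeR fit the adjusted p was 0.0511 for NVE4964, 0.04999 for NVE24294 (one of the 4 rises called), 0.0596 for NVE16297 and 0.0881 for NVE14749, with changes of 3.25, 2.02, -1.79 and -1.58 log2 units. All 263 genes kept their direction, with median changes of 1.15 and -1.17. The fit over all 66 libraries takes this change mostly from the same 14, so direction and size were bound to be close and test nothing.

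Beside the other intervals of 2 h in the same fit, the 263 calls were the fourth highest of 8 counts. ZT9 against ZT7 held 824 calls (7.55%), ZT11 against ZT9 460 (4.21%) and ZT7 against ZT5 384 (3.52%). Fewer were called for ZT6 against ZT4 (110, or 1.01%, with 4 libraries at ZT4), ZT8 against ZT6 (61, or 0.559%), ZT5 against ZT3 (32, or 0.293%) and ZT10 against ZT8 (25, or 0.229%). These intervals share hours with each other, and the differences between their counts were not tested.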

How the data were processed

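The authors deposited 1 table of raw counts, with 24265 gene models in rows and a column for each of 66 libraries. The labels cite Putnam et al. for the genome and Meyer et al. for library preparation; the aligner was Bowtie2 per the submitters' processing notes. For counting, annotation, strand and duplicates the setting is not given in the sources used here; reads of closely related models may have been split. Library letters and sample type come from the labels; replicates are separate animals or pools.

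Counts were tested with edgeR 4.0.16 in R 4.3.3 (quasi-likelihood F test, robust, TMM factors) over all 66 libraries with hour and sample type in the model and 55 residual degrees of freedom. Filtering with edgeR's filterByExpr (count of at least 10, grouped by hour) left 10916 models with 97.2% of counts, which the fits used except where stated. Fits with sample type as covariate that left out 1 library, or the 4 high on the axis (10825 models), were filtered anew. CPM used TMM factors. Named genes had the smallest p in each direction among those past an adjusted p of 0.05, at most 2 per direction and test, as no names could be matched. DESeq2 1.42.0, limma 3.58.1 and the other settings of the closing section were alternatives. No 2 of the 14 libraries agreed within sampling noise (lowest chi-square 3.31 per degree of freedom over 91 pairs). The fits were also run on simulated counts, drawn for each gene apart and so without an axis shared between libraries. That run cannot say how the fits behave with such an axis. The hours and settings compared were chosen with earlier results of these data known, and the test among the 8 other hours after the data were seen.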

Additional observations from a re-analysis of the deposited data

Results flagged for a closer look

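Library totals, gene models detected, axis scores, the shares of counts in the rising and falling genes, and the 6 named genes' CPM were each looked at among the 7 libraries of ZT10, ZT11 and ZT12. In 2 of 33 groups of values a library lay farther from its nearest neighbour than the 95% limit of Dixon's test allows, where chance picks out about 1 in 20. ZT10 pooled E had 13.7 CPM of NVE4964, from 9 counts, against 0 to 4.79 CPM in the other 6 libraries of that hour. Without this library the rise of NVE4964 was larger, at 4.21 log2 units (edgeR adjusted p = 1.65e-05). ZT11 pooled F had 42.5 CPM of NVE24294 against 6.12 to 21.6 CPM in the other 6 libraries of ZT11. That library is at neither end of the comparison of ZT12 with ZT10 and is 1 of the 66 libraries of its fit.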

How the results depend on the processing

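The direction of the 6 named genes held under every setting tried, and no result reversed. The settings share most or all of the libraries of these hours, so agreement in direction tests nothing. Changes of NVE4964, NVE24294, NVE16297 and NVE14749 ran from 3.00 to 4.21, 1.90 to 2.49, -2.03 to -1.63 and -1.74 to -1.23 log2 units over 28 settings each, with adjusted p from 1.65e-05 to 0.125, 0.000154 to 0.125, 0.000121 to 0.162 and 0.000514 to 0.166. With each of the 14 libraries left out, the rises of ZT12 over ZT10 ran from 45 to 267 and the falls from 21 to 364. Rises numbered 196 with limma and quality weights, 67 without a filter on low counts (60 falls), 67 with the libraries of ZT10, ZT11 and ZT12 alone (49 falls), 4 with those of ZT10 and ZT12 alone (0 falls) and 176 with the axis score as covariate, the last chosen after the data were seen, as were limma and DESeq2 on the 14 libraries alone (86 and 73 falls). Leaving out the 4 libraries high on the axis gave 153 and 215, and older quasi-likelihood estimates 87 and 109, both also chosen after the data were seen. The cause of these differences was not tested.

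Whether the replicate letters pair the libraries was not settled. Deviations of same-letter libraries of ZT10 and ZT12 correlated from -0.351 to 0.362, 3 of 7 above 0.1. Of the 7 ZT10 libraries, 1 correlated best with its own letter. Letters A, D and E gave 0.154, 0.165 and 0.362. Letters B, C, F and G gave negative values, and each has a library high on the main axis at only 1 of the hours. The part of the axis in these values was not tested. With the letter as a replicate block, all hours gave 107 rises and 133 falls and the 14 libraries alone gave 0 and 0 (smallest adjusted p 0.0705). The block also gave 1 fall from ZT11 to ZT12.

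ZT11 against the midpoint gave 4 genes above and 10 below in DESeq2, 17 and 9 in limma, 0 above without the filter, 0 and 0 in the 21 libraries alone, 0 and 2 without the 4 axis libraries, and 2 above with the axis score. With a library left out it gave 0 to 3 above and 0 to 2 below (3 and 2 without ZT10 pooled E). From ZT10 to ZT11, DESeq2 gave 19 and 28, limma 16 higher, and 27 and 42 were called without the 4 axis libraries; DESeq2's size factors, no filter, the 21 libraries alone, no covariate and the older estimates gave 0 and 0, and leaving out a library 0 to 35 and 0 to 41. From ZT11 to ZT12, DESeq2 gave 26 and 9, limma 43 and 28, no covariate 1 and 2, the axis score 8 and 10, and leaving out a library 0 to 4 and 0 to 5 (4 and 3 without ZT11 individual D, 2 and 5 without ZT10 pooled F).

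Single animals alone gave 49 to 96 rises and 16 to 87 falls with a library left out, 36 falls without the filter and 74 rises without the 2 individuals high on the axis. Each single animal except ZT10 individual B moved a count by over 1.5 times, and the lowest of both came without ZT12 individual B. Pools gave 0 in both directions with any library left out, and 1 fall in DESeq2 and without the filter. The interaction gave 9 and 6 in DESeq2, and 0 to 6 and 0 to 4 with a library left out (6 and 4 without ZT12 pooled G). Differing among the 8 other hours were 71 rising and 97 falling genes with limma (22.4% of all), 65 and 90 without ZT4 (17.1%) and 64 and 90 without 4 morning libraries that share a block of genes (18.1%). Depth limits the genes with few reads most. No count in at least 1 of the 14 libraries was found for 13 of the 117 rising and 11 of the 146 falling genes, against 1194 of all 10916 tested.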
